A study of Mus musculus with 37 samples.

Results

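Collagens are secreted or membrane-anchored proteins built of 3 chains wound into a triple helix, and each chain is made by a gene of its own. The collagen genes described here are those in the deposited count table whose symbol reads Col, a number, a, and a number. They are 44 of its 39017 genes. By structure, 11 make fibrillar chains, 6 make the type IV chains of basement membranes, 3 make short-chain network collagens and 4 make transmembrane collagens. Of the rest, 6 make beaded filaments (type VI), 9 are fibril-associated, 1 forms anchoring fibrils (Col7a1), 2 are multiplexins, and Col26a1 and Col28a1 were kept apart.

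The tumours grew under the skin of C57BL/6 mice from implanted pancreatic tumour cells and were taken 3 weeks later, with no treatment. By their labelled T cell phenotype, 7 clones (15 tumours) were high, 7 (15 tumours) were low and 2 (4 tumours) were intermediate. The sources used here do not give the genotype of the implanted cells, the age and sex of the hosts or how the phenotype was measured. Each implanted line is 1 clone, so tumours of a clone share their tumour cells, and the clone served as the replicate. Some clones share a number, such as bulk_6419c1 and bulk_6419c5, and the sources do not say what it stands for. Such clones were treated as independent, which limits the p-values if they are related.

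In pancreatic tumours most fibrillar collagen RNA is known to come from fibroblasts. Fibrillar chains are hydroxylated, folded and trimmed at both ends before they assemble into fibrils that lysyl oxidases cross-link. Type IV chains form the sheet under epithelium and around vessels and are known to come from endothelial and epithelial cells as well. In bulk tissue, fewer cells of a type and less RNA per cell cannot be told apart.

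Total counts ran from 7.39 to 102.33 M per library over the 34 tumours. In 17 of these libraries, liver and heart transcripts were abundant (summed Myh6, Myh7, Cps1 and Serpina3k of 257.7 to 5922 CPM, a gene's counts scaled to the size of its library, against at most 0.538 CPM in the other 17). They include every tumour numbered 1. The 4 libraries with the most of them, from clones bulk_6555c3, bulk_6419c5, bulk_2838c3 and bulk_6499c4, were nearly alike although the clones and phenotypes differ. Col1a1 stood at 884 to 1072 CPM in all 4. Levels and phenotype comparisons are therefore led by clone sums of the libraries without these transcripts, from 7 high, 6 low and 2 intermediate clones, with all 34 libraries beside them. The low clone bulk_6422c1 has no such library and enters only the latter. The clone sums kept some RNA of a wider liver list (Alb, Apoa1, Ttr, Cps1 and Serpina3k), unevenly by phenotype. It summed to 2.01 to 64.5 CPM in high clones (median 4.51 CPM) and 4.44 to 319 CPM in low clones (median 64.4 CPM). Heart markers summed to 11.4 to 472 CPM in high and 33.0 to 387 CPM in low clones, and Tnnt2 alone reached 471 CPM.

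Upstream sequences are shown for 4 members that stand for the patterns described further on. Col3a1 and Col5a1 are fibrillar genes whose levels followed Col1a1 over clones. Col4a6 and Col10a1 were low in most clones and highest in bulk_6421c2. Each is the 250 bases before the gene start in RefSeq (GRCm38.p6), 5′ to 3′ on the gene's strand. Capitals mark matches on either strand to 3 motifs, which are the CCAAT box, the TATA box written TATAAA and the GC box written GGGCGG.
Col3a1 (chr1:45311288-45311537, plus strand): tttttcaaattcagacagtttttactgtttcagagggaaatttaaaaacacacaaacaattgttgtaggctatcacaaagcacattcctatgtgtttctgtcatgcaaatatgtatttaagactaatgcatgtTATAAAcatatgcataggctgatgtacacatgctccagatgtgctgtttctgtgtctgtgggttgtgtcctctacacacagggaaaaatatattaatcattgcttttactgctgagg
Col5a1 (chr2:27886175-27886424, plus strand): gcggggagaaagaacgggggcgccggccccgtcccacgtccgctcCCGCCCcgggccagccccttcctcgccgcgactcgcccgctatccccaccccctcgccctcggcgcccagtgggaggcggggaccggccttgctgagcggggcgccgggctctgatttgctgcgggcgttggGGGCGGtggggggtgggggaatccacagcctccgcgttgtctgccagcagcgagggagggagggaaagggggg
Col4a6 (chrX:141474077-141474326, minus strand): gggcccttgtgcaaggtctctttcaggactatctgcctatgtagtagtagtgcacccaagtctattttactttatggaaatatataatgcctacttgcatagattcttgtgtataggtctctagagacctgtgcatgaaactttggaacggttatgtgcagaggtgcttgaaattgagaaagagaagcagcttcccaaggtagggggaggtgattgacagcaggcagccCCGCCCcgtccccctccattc
Col10a1 (chr10:34389731-34389980, plus strand): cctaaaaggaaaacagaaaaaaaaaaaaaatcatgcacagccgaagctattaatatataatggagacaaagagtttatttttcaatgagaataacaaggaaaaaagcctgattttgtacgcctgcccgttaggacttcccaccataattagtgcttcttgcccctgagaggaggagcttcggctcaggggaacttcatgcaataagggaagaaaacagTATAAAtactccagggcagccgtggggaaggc

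The pair whose levels moved together shared none of the 3 motifs. The window of Col3a1 held TATAAA, starting 117 bases before the gene start, and that of Col5a1 held GGGCGG at 2 places. The window of Col10a1 held TATAAA starting 32 bases before its start, and that of Col4a6 held 1 GGGCGG. Of the 44 members, 35 matched the RefSeq table, with 38 windows. GGGCGG lay in 22 of the 38 windows, CCAAT in 13 and TATAAA in 5. Over all 32851 windows of 250 bases, 32.7% held GGGCGG, 33.8% held CCAAT and 12.4% held TATAAA. These are letter matches and were not tested as binding sites. Col1a1, Col2a1, Col4a3, Col5a2, Col9a3, Col12a1, Col14a1, Col22a1 and Col26a1 were not matched.

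The fibrillar genes Col1a1 and Col1a2, the chains of type I collagen, and Col3a1, the chain of type III collagen, dominated the collagen RNA. Per kilobase of the longest coding transcript, their mean levels over 15 clones were 959, 668 and 656 CPM per kb, the 3 highest of all members. These 3 genes held 53.7% to 74.2% of collagen counts in each high or low clone, and 65.3% and 73.9% in the intermediate clones. All 44 members together took 1.10% to 2.65% of all counts in high clones (median 1.69%) and 1.06% to 2.41% in low clones (median 1.76%). The intermediate clones bulk_6422c5 and bulk_7160c5 stood at 1.96% and 4.02%. High and low clones thus overlapped almost fully in total collagen RNA, and bulk_7160c5 lay above all others. The next members per kb were Col18a1 at 164, Col6a1 at 144, Col4a1 at 130 and Col6a2 at 104 CPM per kb.

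**Figure D1:**
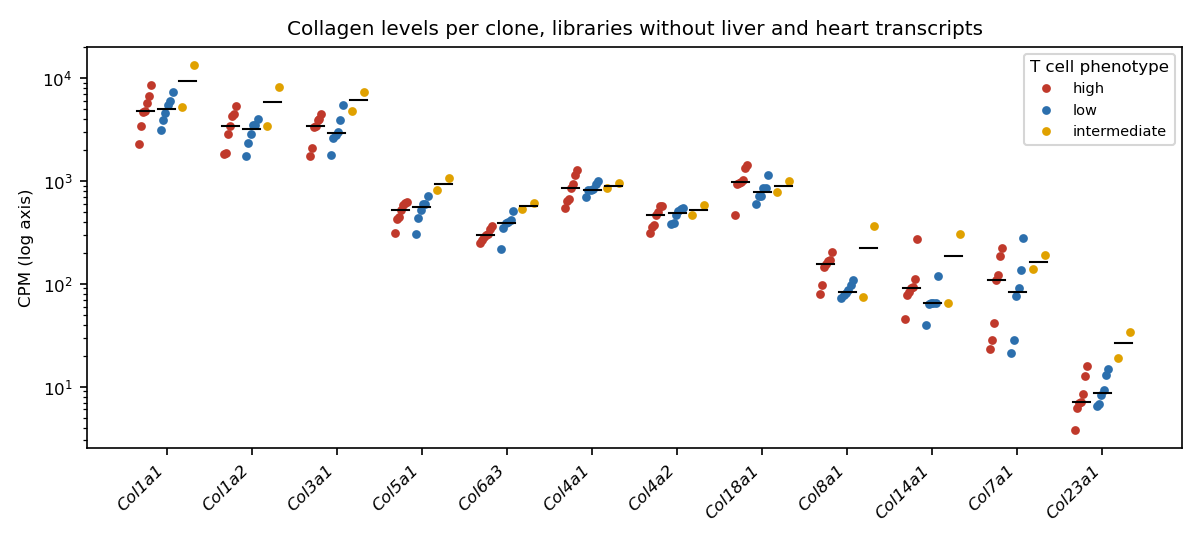
Levels of 12 collagen genes in CPM (log axis) per clone, from libraries without liver and heart transcripts. Points are 7 high, 6 low and 2 intermediate clones and lines are medians. The points of high and low clones overlap for every gene shown, and the highest Col1a1 point, at 13321 CPM, is an intermediate clone.

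Fibrillar collagens did not separate high from low clones. Col1a1 (ENSMUSG00000001506, chr11:94936224-94953042 in GRCm38) ran from 2298 to 8653 CPM in high clones, with a median of 4832 CPM. In low clones Col1a1 ran from 3150 to 7399 CPM, with a median of 4996 CPM. The log2 difference of Col1a1, high minus low, was 0.04 (SE 0.30, edgeR quasi-likelihood adjusted p = 0.994). Col1a2 differed by 0.20 (SE 0.29) and Col3a1 by 0.00 (SE 0.27) on the same scale. Among minor fibrillar chains, Col5a1, Col5a2 and Col5a3 of type V, which sits inside type I fibrils, gave −0.08, 0.09 and −0.11. Col11a1 and Col11a2 of type XI, best known from cartilage, gave −0.70 (SE 0.61) and 0.60 (SE 0.50), Col24a1 −0.30 and Col27a1 −0.04. The remaining fibrillar gene, Col2a1, the main chain of cartilage fibrils, reached at most 1.77 CPM (clone bulk_6499c4) and was not tested in these libraries.

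Across all classes, no member passed the test between high and low clones. Of the 40 members tested, 22 were positive and 18 negative, and their median log2 difference was 0.02. Over all 17905 genes tested the median was −0.00 with 49.6% positive, and 0% passed. At an unadjusted p under 0.05 stood 5 members and 1168 genes (6.52%). The 4 members not tested, at low counts, were Col2a1, Col9a1, Col19a1 and Col22a1. DESeq2 called 35 genes and 0 members. With all 34 libraries, 36 of 43 members were positive, with a median of 0.37 beside −0.00 over 20348 genes, and again 0% passed with edgeR (7 members at an unadjusted p under 0.05, smallest adjusted p = 0.659). The shares of members above 0 thus differed with the libraries used. In that fit Col1a1 gave 0.37 (SE 0.34), Col1a2 0.47, Col3a1 0.27, Col4a1 0.21, Col4a2 0.16, Col8a1 0.72, Col14a1 0.99 and Col18a1 0.38 (SE 0.22), none past the threshold. Fibroblast markers (Pdgfra, Pdgfrb, Dcn, Lum, Fap, Thy1, Pdpn and Mfap5) summed to 312 to 525 CPM in high clones and 241 to 627 CPM in low clones, with 0 of 8 called and none at 0. Their part in the collagen values was not tested.

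**Figure D2:**
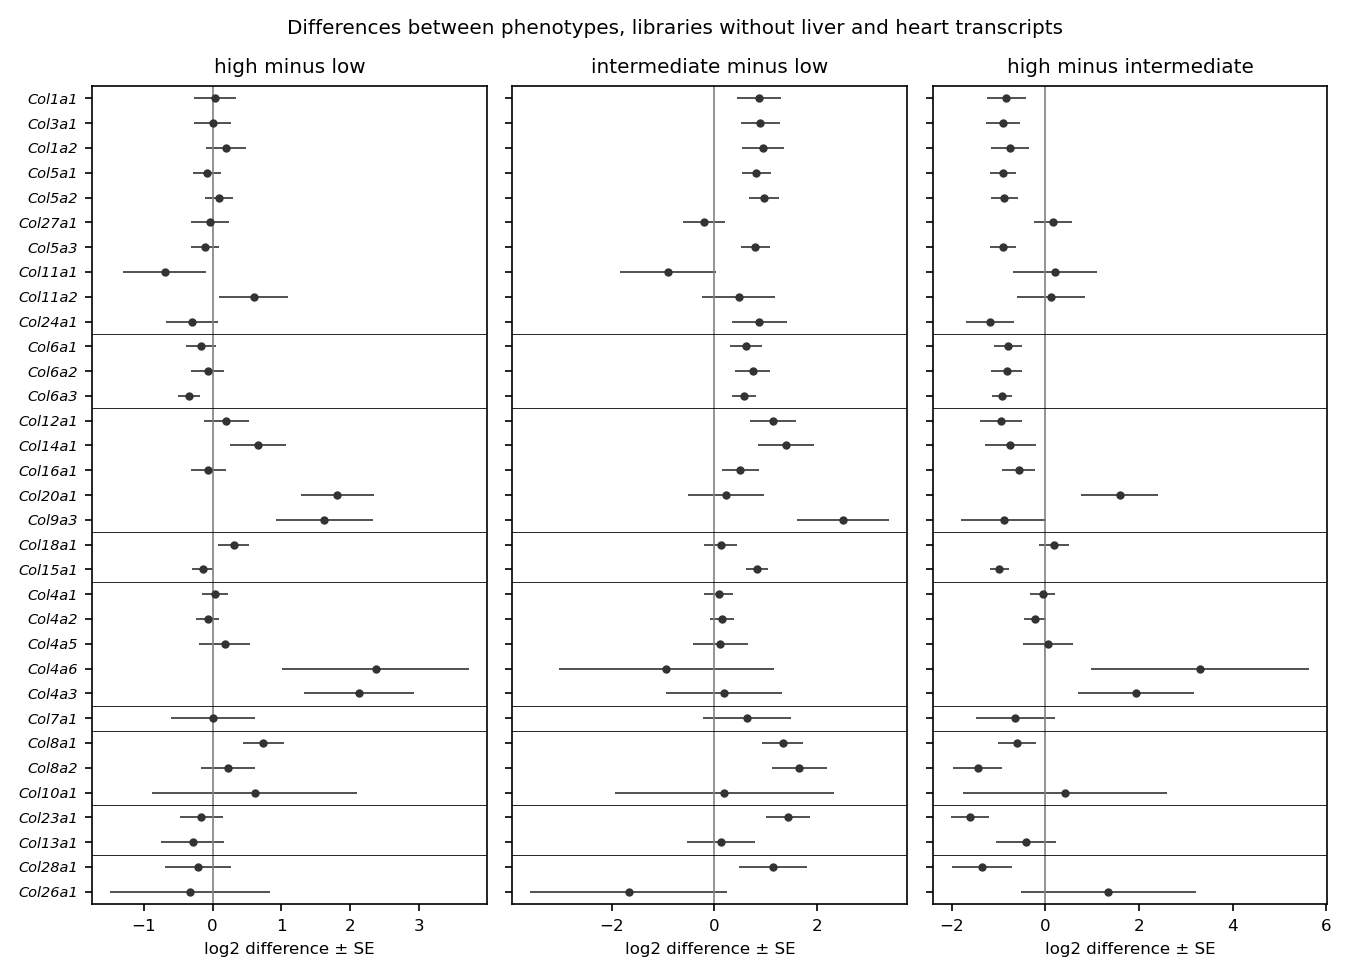
Log2 differences (points, bars ± SE) between phenotypes for the members with a mean of at least 1 CPM, grouped by collagen class, from libraries without liver and heart transcripts. In the left panel values lie on both sides of 0, from Col4a6 at 2.37 to Col11a1 at −0.70, and in the middle panel (intermediate minus low) most lie above 0.

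The basement membrane genes split into 2 groups by level. Col4a1 and Col4a2, whose chains form the common type IV trimer, were abundant and even. They lie head to head on chromosome 8, with Col4a1 at chr8:11198423-11312826 (minus strand) and Col4a2 at chr8:11312805-11449287 (plus strand). Col4a1 ran from 550 to 1275 CPM in high clones (median 852 CPM) and from 694 to 1005 CPM in low clones (median 820 CPM), a log2 difference of 0.03 (SE 0.19). Col4a2 gave −0.07 (SE 0.17). Col4a1 had a 2.32-fold and Col4a2 a 1.88-fold range over the 15 clones, the narrowest of all members, while Col1a1 spanned 5.80-fold.

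The other type IV genes make the chains of specialised basement membranes, such as that of the kidney filter. Col4a5 was at 6.37 to 55.7 CPM. Col4a3, Col4a4 and Col4a6 were near 0 in most clones and each was high in 1. Col4a6 (chrX:141165403-141474076) reached 18.6 CPM in the high clone bulk_6421c2 and at most 2.55 CPM in the other 14. Both tumours of bulk_6421c2 were high, at 16.9 and 19.0 CPM of Col4a6. Col4a3 and Col4a4, which lie head to head on chromosome 1, were both highest in the high clone bulk_6620c1, at 9.57 and 7.90 CPM. The next clone had 1.29 CPM of Col4a3 and 0.893 CPM of Col4a4. The 2 tumours of bulk_6620c1 held 9.95 and 2.40 CPM of Col4a3, and 8.21 and 1.41 CPM of Col4a4, the lower value each time in the library with liver and heart transcripts. For these genes the differences between high and low clones were the largest of all members, at 2.13 (SE 0.80) for Col4a3, 2.60 (SE 1.02) for Col4a4 and 2.37 (SE 1.36) for Col4a6. None passed (adjusted p of 0.711, 0.724 and 0.813), and each value rested on 1 clone. Without bulk_6620c1 Col4a3 gave 0.66 and Col4a4 0.88, and without bulk_6421c2 Col4a6 gave −0.43. DESeq2 with all clones gave 0.61 for Col4a3 and −0.50 for Col4a6. Col4a4 is named for its p, after its values were seen.

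Among the network collagens, Col8a1, a short chain made by vessel and stromal cells, ran from 79.3 to 206 CPM in high clones (median 156 CPM) and from 72.4 to 109 CPM in low clones (median 83.8 CPM). The groups overlapped, since the high clones bulk_2838c3 and bulk_6556c4 lay within the low range. The log2 difference was 0.74 (SE 0.30, p = 0.0246, adjusted p = 0.730 with edgeR). Its partner Col8a2 was at 3.10 to 11.04 CPM in high or low clones and 35.3 CPM in bulk_7160c5. Col10a1, known from growing cartilage, was absent or low in most clones. It reached 27.2 CPM in the high clone bulk_6421c2, 17.6 CPM in the low clone bulk_6419c5 and 6.83 CPM in the intermediate clone bulk_7160c5, against at most 2.001 CPM of Col10a1 elsewhere. Of the 4 cartilage markers matched by symbol, Acan, the core protein of aggrecan, ranged from 5.60 to 591 CPM and stood at 218, 118 and 5.60 CPM in those 3 clones. Comp was at most 3.30 CPM, Matn3 at most 3.68 CPM and Matn1 at most 0.111 CPM in every clone.

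The transmembrane collagens were scarce. Col23a1 was the most abundant per kb at 2.02 CPM per kb, with 3.78 to 15.7 CPM in high clones, 6.48 to 14.7 CPM in low clones, and 18.8 and 33.99 CPM in the intermediate clones. Col13a1 was at 1.37 to 8.38 CPM. Col17a1, the hemidesmosome collagen of keratinocytes and other epithelia, was at 0.154 to 1.47 CPM and Col25a1 at 0.0241 to 0.441 CPM. All 4 log2 differences, high minus low, lay between −0.32 and −0.17, each smaller than its SE, and none passed. The 4 keratinocyte markers summed to 5.65 to 59.998 CPM in high clones and 11.2 to 72.8 CPM in low clones. Krt14 reached 64.5 CPM and Krt10 ranged from 4.17 to 10.04 CPM, while Krt5 was at most 3.35 CPM and Krt1 at most 0.275 CPM. Their part in the Col17a1 values was not tested.

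Of the remaining classes, the type VI chains Col6a1, Col6a2 and Col6a3 form beaded filaments. Their log2 differences were −0.17, −0.07 and −0.34 (SE 0.16, p = 0.0515 for Col6a3, adjusted p = 0.763 with edgeR). Col6a3 ran from 250 to 361 CPM in high clones and from 219 to 511 CPM in low clones, and the low clone bulk_2669c4 lay below every high clone. The multiplexin Col18a1, whose end fragment is endostatin, ran from 467 to 1418 CPM in high and 602 to 1152 CPM in low clones (0.30, SE 0.22). Among fibril-associated genes, Col20a1 gave the smallest p of all members (1.81, SE 0.53, p = 0.00365, adjusted p = 0.711). Col20a1 ran from 2.66 to 32.7 CPM in high clones and from 2.05 to 4.33 CPM in low clones. In bulk_6555c3, the highest clone, Col20a1 was at 33.4 CPM in 1 tumour and 6.13 CPM in the other, and without that clone the log2 difference was 1.11. The lower value is from 1 of the 4 nearly alike libraries, which all held Col20a1 at 4.95 to 6.49 CPM. Col9a3 gave 1.62 (SE 0.71), Col14a1 0.66 (SE 0.40, or 0.27 without bulk_7160c2), Col12a1 0.20 and Col16a1 −0.06. Col7a1, the anchoring fibril collagen under epithelia, ran from 21.2 to 278 CPM with both ends in low clones, and its log2 difference was 0.00 (SE 0.61). Col15a1, Col26a1 and Col28a1 gave −0.15, −0.32 and −0.21.

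Intermediate clones lay higher for most members, but there were only 2 of them. Against low clones, 35 of 40 members were positive and 5 negative, with a median log2 difference of 0.70 beside −0.01 over all genes, and 14 members and 1123 genes (6.27%) were at an unadjusted p under 0.05. No member passed (0% of all genes, smallest adjusted p of a member 0.543, edgeR), and DESeq2 called 26 genes and 0 members. The multiplexin Col15a1 had the smallest p. Col15a1 was at 214 and 334 CPM in the intermediate clones and at 113 to 199 CPM in the low clones, a log2 difference of 0.84 (SE 0.21, adjusted p = 0.543), without overlap. Col23a1 gave 1.44 (SE 0.43), Col5a2 0.97 (SE 0.29), Col8a1 1.34 (SE 0.40), Col5a1 0.82, Col3a1 0.90, Col12a1 1.14, Col14a1 1.41, Col1a2 0.95 and Col1a1 0.88 (SE 0.43). Col4a1 and Col4a2 gave 0.08 and 0.15.

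The intermediate values rested in part on clone bulk_7160c5. Of the 15 clones, bulk_7160c5 had the highest level for the fibrillar Col1a1, Col1a2, Col3a1, Col5a1 to Col5a3 and Col24a1. The same held for the basement membrane gene Col4a2 and for Col6a1 to Col6a4, Col8a1, Col8a2, Col9a3, Col12a1, Col14a1 to Col16a1, Col23a1 and Col28a1. Without bulk_6422c5, bulk_7160c5 stood alone and was assumed to vary like the other groups. The count filter then admitted genes through that clone alone, so the number of genes called cannot be read there. Col8a1 gave 2.08 in that fit. Without bulk_7160c5, Col8a1, Col14a1 and Col4a2 turned to −0.23, −0.09 and −0.01. The other members with a value given above against low clones stayed positive whichever clone was left out. Their lowest log2 differences were 0.97 for Col23a1, 0.62 for Col5a1, 0.57 for Col3a1, and 0.49 for Col15a1 and for Col5a2. Those of Col12a1, Col1a2, Col1a1 and Col4a1 were 0.45, 0.21, 0.07 and 0.0065. Fibroblast markers summed to 985 CPM in bulk_7160c5 and 505 CPM in bulk_6422c5, with 8 of 8 positive against low clones and 0 called. In bulk_7160c5 the sums of pericyte and smooth muscle markers (535 CPM), endothelial markers (395 CPM) and T cell markers (32.8 CPM) also lay above all low clones, which reached 314, 257 and 11.96 CPM. In bulk_6422c5 these sums were 173, 163 and 4.63 CPM. The T cell sum of bulk_7160c5 also lay above all high clones. High clones, at 4.23 to 16.3 CPM of T cell markers, overlapped with low clones, at 1.81 to 11.96 CPM. Of these 5 markers 5 were positive, high minus low, and 0 were called. Their part in the collagen levels was not tested. Between high and intermediate clones, 12 of 40 members were positive and 28 negative, with a median of −0.62 and 0 members called by edgeR or DESeq2, where 0.00559% of all genes passed and 13 members and 706 genes (3.94%) were at an unadjusted p under 0.05. Col15a1, Col23a1 and Col1a1 gave −0.98 (SE 0.21), −1.61 (SE 0.41) and −0.84 (SE 0.42). With all libraries the medians were 0.92 for intermediate minus low and −0.62 for high minus intermediate over 43 members, with 0% called in both.

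**Figure D3:**
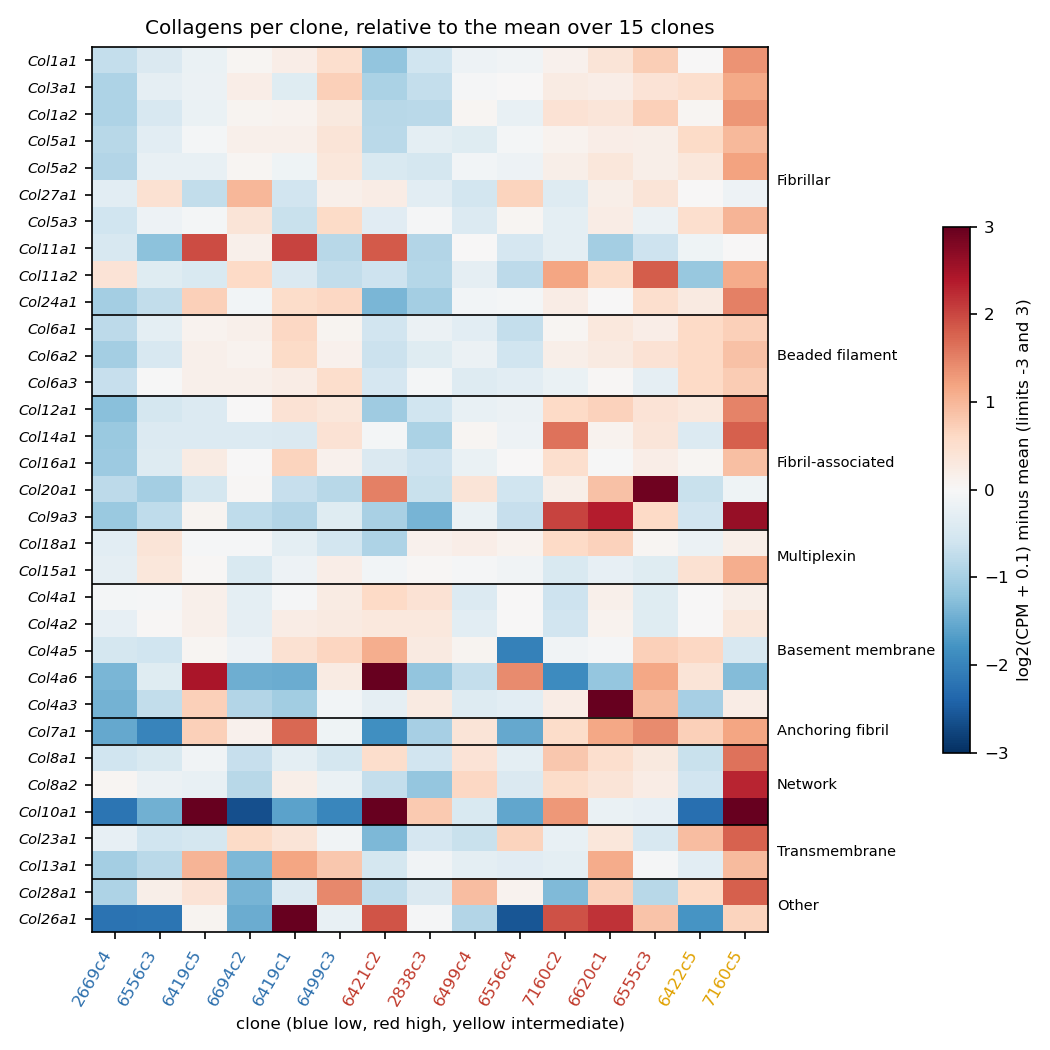
Collagen genes with a mean of at least 1 CPM (vertical axis, by class) in 15 clones (horizontal axis, by phenotype and then Col1a1 level), as log2(CPM + 0.1) minus the mean over clones, with colours limited to −3 and 3. Clone bulk_7160c5 is high for most fibrillar and beaded filament genes, while Col4a3, Col4a6 and Col10a1 are high in 1 to 3 clones.

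Differences between clones were wide. In a fit of 34 tumours with a term for the liver and heart transcripts, 30 of 43 members differed between the 16 clones (edgeR F test), where 31.5% of 20421 genes did. Without that term 10 members and 2468 of the 20421 genes were called. Without the 4 nearly alike libraries 28 members and 6431 of 20233 genes were called, and the fibrillar Col5a3 and the beaded filament gene Col6a3 were no longer among them (adjusted p of 0.119 and 0.128 with edgeR). The smallest adjusted p belonged to Col9a3 (1.8e-05), a chain of the cartilage collagen IX, which was at 6.68 CPM in bulk_7160c5, 5.61 CPM in bulk_6620c1, 4.43 CPM in bulk_7160c2 and at most 1.59 CPM in the other clones. Col14a1 (adjusted p = 3.69e-05), a fibril-associated collagen of skin and tendon, was at 271 and 305 CPM in bulk_7160c2 and bulk_7160c5 and at 40.1 to 118 CPM in the rest. Those 2 clones share a number and have different phenotype labels, high and intermediate. Col10a1, Col4a6, Col8a1, Col12a1, Col1a2, Col16a1, Col3a1, Col11a2, Col5a2 and Col18a1 followed in the order of p, from 0.000154 to 0.00206 after adjustment.

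Of the fibrillar genes all but Col27a1 were called, with adjusted p of 0.00282 for Col1a1, 0.00116 for Col1a2 and 0.00162 for Col3a1. The abundant basement membrane genes Col4a1 and Col4a2 were not called (adjusted p of 0.192 and 0.415), and neither was Col17a1 (0.955). The other members not called were Col4a5, Col6a6, Col9a2, Col13a1, Col15a1, Col19a1, Col22a1, Col25a1, Col27a1 and Col28a1. No test compared the size of clone differences between classes.

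Clones with the same number did not always match. Col11a1 was at 27.1 and 25.6 CPM in bulk_6419c1 and bulk_6419c5 and at 23.6 CPM in bulk_6421c2, against 2.75 to 7.29 CPM in the other 12 clones. In tumours, Col11a1 was at 25.6 and 27.9 CPM for bulk_6419c1, 13.8 and 26.0 CPM for bulk_6419c5, and 33.5 and 24.1 CPM for bulk_6421c2. The value of 13.8 CPM is from 1 of the 4 nearly alike libraries, which all held Col11a1 at 13.5 to 15.4 CPM. Col10a1, by contrast, differed between bulk_6419c5 (17.6 CPM) and bulk_6419c1 (0.179 CPM). In the tumours of bulk_6419c5 itself Col10a1 was at 17.8 and 0.954 CPM, and the lower value is from 1 of the 4 nearly alike libraries. In the tumours of bulk_6421c2 Col10a1 was at 27.8 and 11.997 CPM. Col26a1 stood at 8.02 CPM in bulk_6419c1, against at most 2.56 CPM in other clones, and its tumours held 8.28 and 2.23 CPM. In the bulk_7160c2 tumour with liver and heart transcripts Col26a1 was at 9.23 CPM.

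The type I, type III and main type V chains rose and fell together over clones, and other fibrillar members did not all do so. Over the 15 clones, log2 CPM of Col1a1 and Col1a2 had Pearson r = 0.96 and Spearman rho = 0.96 (permutation p = 1e-05 for each, the smallest that 100000 permutations can give, adjusted p = 2.67e-05 and 4e-05). Col1a1 and Col3a1 had r = 0.91 and rho = 0.84 (permutation p = 1e-05 and 0.00017, adjusted 2.67e-05 and 0.000272), and Col1a1 and Col5a1 r = 0.89 and rho = 0.88 (permutation p = 2e-05 and 3e-05, adjusted 3.2e-05 and 8e-05). Without the 2 clones farthest from the median Col1a1, bulk_7160c5 and bulk_6421c2, r was 0.95, 0.82 and 0.78. Within the 7 high clones alone, r was 0.94, 0.96 and 0.93. As a description with no test, r with Col1a1 was 0.90 for Col24a1, 0.89 for Col5a2, 0.61 for Col5a3, 0.53 for Col11a2, 0.052 for Col27a1 and −0.21 for Col11a1. In all, 8 relations were computed, and adjusted values cover these 8.

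The abundant type IV genes followed each other. Col4a1 and Col4a2 had r = 0.91 and rho = 0.91 (permutation p = 1e-05 for each, adjusted 2.67e-05 and 4e-05), and r was 0.90 without bulk_7160c2 and bulk_6421c2. The other type IV genes measured had r with Col4a1 of 0.20 (Col4a5), 0.13 (Col4a3) and 0.49 (Col4a6), given as a description. Col4a1 and Col1a1 had r = −0.30 and rho = −0.12 (permutation p = 0.283 and 0.665, adjusted 0.323 and 0.665), and r = −0.02 without bulk_7160c2 and bulk_6421c2. This r was 0.18 with all libraries, −0.49 without bulk_7160c5 and −0.71 within the 7 high clones, so its size and sign depended on the clones and libraries used. Col4a1 and the endothelial gene Pecam1 had r = 0.31 and rho = 0.39 (permutation p = 0.256 and 0.152, adjusted 0.323 and 0.203), with r = 0.51 without the same clones. Col17a1 and the epithelial gene Epcam had r = −0.19 and rho = −0.21 (permutation p = 0.492 and 0.443, adjusted 0.492 and 0.506), with r = −0.16 without bulk_7160c2 and bulk_2669c4.

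Col1a1 also followed Pdgfrb, a receptor of fibroblasts and pericytes, with r = 0.90 and rho = 0.85 (permutation p = 2e-05 and 0.00016, adjusted 3.2e-05 and 0.000272), and r = 0.79 without bulk_7160c5 and bulk_6421c2. Among 14170 genes with at least 1 CPM that were compared, the non-collagen genes most like Col1a1 over 15 clones were Cpz (r = 0.97), Adamts2 (0.96), Emx2 (0.94), Mfap4 (0.94) and Cpxm1 (0.93). For Col4a1 they were Gm6483 (0.85), Spata2 (0.84), Mab21l3 (0.81), Gm13910 (0.79) and Zfp319 (0.78). For Col17a1 they were Fzd6 (0.86), Zfpm2 (0.84), Fam212a (0.82), BC029722 (0.82) and Dlk2 (0.81). Col17a1 itself had a mean of 0.571 CPM, under that cut, and 5 counts in its lowest clone, so its r rest on few counts. Values over clones share their libraries and scaling, and these r are descriptions chosen as the largest.

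**Figure D4:**
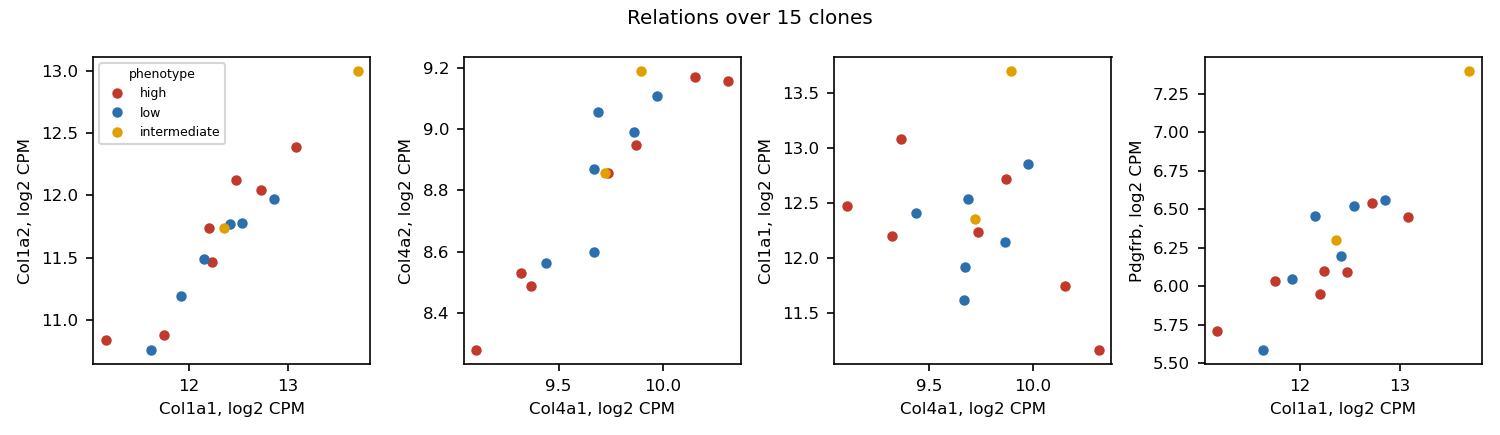
Levels of 4 gene pairs over 15 clones, in log2 CPM, coloured by phenotype. Col1a1 with Col1a2 and with Pdgfrb, and Col4a1 with Col4a2, lie along lines (r = 0.96, 0.90 and 0.91), while Col4a1 and Col1a1 scatter (r = −0.30).

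Genes that process collagen were counted from a list of 29: prolyl and lysyl hydroxylases, chaperones, procollagen proteinases and lysyl oxidases. Between high and low clones 13 were positive and 16 negative, with a median of −0.02 and 0 called. The smallest p belonged to Ppib (0.39, SE 0.14), Serpinh1 (0.36, SE 0.15) and Fkbp14 (0.45, SE 0.20), which fold collagen in the endoplasmic reticulum. Serpinh1 is the collagen chaperone HSP47. Between clones 16 of the 29 differed. Of the 9 collagen receptors, 8 were tested, 5 positive and 3 negative with 0 called between high and low clones, and 4 differed between clones. The collagen-binding integrin chain Itga1 had the smallest p among them (−0.62, SE 0.28, p = 0.0453, adjusted p = 0.758 with edgeR).

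Within clones, the libraries with liver and heart transcripts held less RNA of most fibrillar collagens. Of 43 members, 20 were lower and 6 higher (edgeR, 34 tumours), where 23.1% of all genes were lower and 24.4% higher. The median was −0.46 over members and −0.01 over genes. Among the 11 fibrillar genes 7 fell and 1, Col11a1, rose by 0.85. Col1a1 fell by 2.11 on the log2 scale (SE 0.21, adjusted p = 4.35e-08) and was lower in 15 of 15 clones. Its levels were 393 to 8277 CPM with these transcripts (median 1059 CPM) and 2348 to 13396 CPM without (median 4965 CPM). Col5a3 fell by 1.71, Col1a2 by 1.20, Col27a1 by 1.09, Col5a1 by 0.96, Col11a2 by 0.93 and Col3a1 by 0.71. Col7a1 fell by 1.56, Col16a1 by 1.31, Col15a1 by 1.02 and Col18a1 by 0.87.

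Of the basement membrane genes, 2 fell and 2 rose. Col4a1 fell by 0.44 and Col4a2 by 0.35, and Col4a5 and Col4a6 rose by 0.47 and 2.05. Col4a6 was higher in 13 of 15 clones. Col6a5, Col6a6 and Col10a1 were the other members that rose. Without the 4 nearly alike libraries 24 members were called, 19 lower and 5 higher, beside 3627 genes lower and 3963 higher of 20233. In that fit Col14a1, which had fallen by 0.44, gave −0.30 (adjusted p = 0.240). Liver markers summed to 466.3 to 10790 CPM in these libraries and 2.06 to 330 CPM in the others, and skeletal muscle markers to 24.6 to 351 CPM and 3.38 to 25.1 CPM. Fibroblast markers summed to 193 to 995 CPM and 211 to 990 CPM, but 2 of the 8 were called higher and 2 lower. Pericyte and smooth muscle markers summed to 250 to 644 CPM and 112 to 538 CPM, with 3 of 6 called higher and 2 lower. The tumour number moves with the transcripts, and neither its part nor that of tissue makeup was tested. Of the 29 processing genes, 18 were lower and 5 higher.

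**Figure D5:**
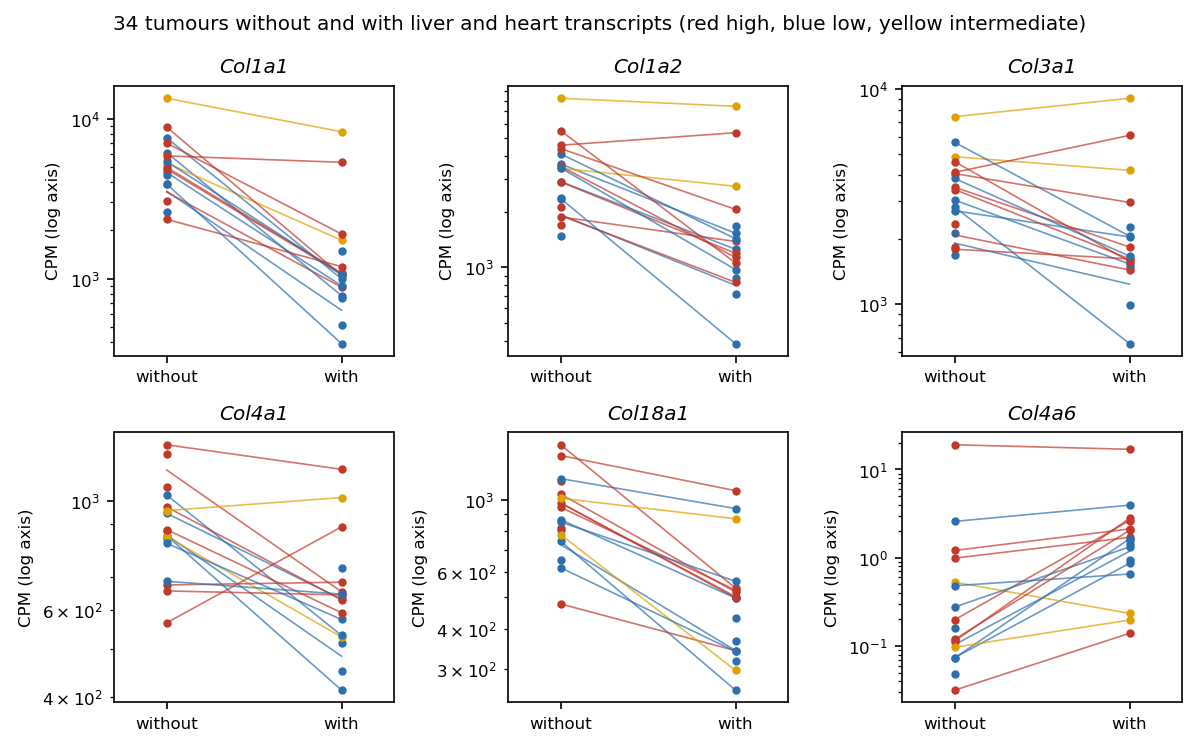
Levels of 6 collagen genes in 34 tumours, in CPM (log axis), without (left) and with (right) liver and heart transcripts, with lines joining the means of each clone. Lines of Col1a1 fall in 15 of 15 clones, and those of Col4a6 rise in 13 of 15.

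The chains of type I collagen did not fall in step. Its usual trimer holds more α1 than α2 chains. Per length of the longest coding transcript, the ratio of Col1a1 to Col1a2 was 1.44 ± 0.16 (SD, n = 15 clones) without the liver and heart transcripts. By tumour it was 1.13 to 1.69 in the 17 libraries without them and 0.462 to 1.003 in the 17 with them, with no overlap. The ratio of Col3a1 to Col1a1 was 0.472 to 0.978 without and 1.16 to 2.79 with them, again with no overlap. The ratio of Col5a1 to Col5a2 was 0.743 to 1.19 without and 0.324 to 0.835 with them. That of Col4a1 to Col4a2 overlapped, at 1.51 to 2.18 and 1.49 to 2.06. The absolute ratio depends on the length used: over the union of all annotated exons the mean for Col1a1 to Col1a2 was 3.02, while the contrast between libraries does not depend on length.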

How the data were processed

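RNA of 37 tumours was sequenced on a NextSeq 550 from 500 ng of total RNA each. The authors deposited 1 table of raw gene counts, made with STAR and featureCounts on mm10 per the submitters' processing notes; the sources used here do not give versions, annotation or strand setting. Counts were summed per clone and compared with edgeR 4.0.16 (quasi-likelihood test, TMM scaling, filterByExpr, Benjamini-Hochberg adjustment over all genes tested, threshold 0.05). CPM were scaled by TMM. Libraries with over 10 CPM of Myh6, Myh7, Cps1 and Serpina3k together were set apart. Clone differences came from 1 fit of 34 tumours with clone and this library class as terms. Each SE is the log2 difference divided by the root of its F value. Alternatives used DESeq2 1.42.0 and limma 3.58.1. The fits were tested on simulated data. Lengths and coordinates came from GENCODE M21 (GRCm38). The 3 tumours without a phenotype label entered no comparison. P-values of the phenotype comparisons of clone sums measure the spread between clones of a phenotype. Those of the clone and library class tests measure the spread between tumours within clones. Nothing in the labels says that tumours of a clone came from separate mice.

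The members, gene lists and library class were chosen with earlier results of these data known. Members were named when their mean was at least 10 CPM, when they had the highest level per length in their class, when they were among the 12 smallest p of those called, or when their high minus low value was among the 4 largest in either direction; other members are given after their values were seen. Genes of the pathway and marker lists were named by the smallest p. Deviations of high and low tumours with the same number correlated at 0.921, 0.869 and 0.626 for numbers 1, 2 and 3. These rest on 7 high and 7 low, 7 high and 6 low, and 1 high and 1 low tumours. Every tumour numbered 1 held liver and heart transcripts. The only other labelled library with them was that of bulk_2669c4_no2 (2884 CPM), so number and library class can hardly be told apart here. Tumour number was not a term in the phenotype comparisons of clone sums.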

Additional observations from a re-analysis of the deposited data

Results flagged for a closer look

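In several groups 1 clone lay far from the others, by the gap to its nearest neighbour over the whole range. This held for 10 of 62 groups (31 genes in 7 high and 6 low clones). Some of these genes were named for clone differences or for large high minus low values in the same data. Such picks favour clones that stand apart, so the count cannot be set against a chance rate. Among high clones, bulk_6421c2 stood apart for Col10a1 (27.2 CPM, next 2.001 CPM), Col11a1 (23.6 CPM, next 6.60 CPM) and Col4a6 (18.6 CPM, next 1.18 CPM). Clone bulk_7160c2 stood apart for Col14a1 (271 CPM, next 112 CPM), bulk_6555c3 for Col20a1 (32.7 CPM, next 12.2 CPM) and bulk_6620c1 for Col4a3 (9.57 CPM, next 1.29 CPM). Among low clones, bulk_6419c5 stood apart for Col10a1 (17.6 CPM, next 0.214 CPM) and Col4a6 (2.55 CPM, next 0.471 CPM), bulk_6419c1 for Col26a1 (8.02 CPM, next 0.523 CPM) and bulk_6499c3 for Col14a1 (118 CPM, next 65.7 CPM).

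The 3 tumours with no phenotype label also held collagen RNA. Col1a1 was at 1034 CPM of the total count in bulk_6883c1_no1, 1671 CPM in bulk_6883c4_no1 and 8085 CPM in bulk_7062c3_no2, within the range of 387 to 13689 CPM in the 34 labelled tumours. Liver and heart transcripts stood at 106, 709 and 0.159 CPM in the same order. Only bulk_7062c3_no2 is thus a library without them, and within clones Col1a1 was lower in libraries with them. The part of the library class in these values was not tested.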

How the results depend on the processing

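No member was called between high and low clones under any alternative run. The number of all genes called moved with DESeq2 to 35 for high against low, 26 for intermediate against low, 13 for high against intermediate and 21 for high against low with all libraries, and to 10073 for clone differences. With all 34 libraries, 0 genes were called for high against intermediate. Without the term for liver and heart transcripts, 2468 genes and 10 members differed between clones. The limma fit on tumours called 0 genes and 0 members for high against low with the replicate block and without it.

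Several high minus low values changed sign, and none of them was called. With all 34 libraries they were 0.24 for Col15a1, 0.26 for Col16a1, 0.22 for Col23a1, 0.93 for Col26a1, 0.11 for Col27a1, 0.16 for Col4a2, 0.20 for Col5a1, 0.18 for Col5a3, 0.13 for Col6a1, 0.27 for Col6a2 and 0.072 for Col6a3. DESeq2 gave −0.50 for Col4a6, and upper-quartile scaling gave 0.0030 for Col27a1. The r of Col4a1 and Col1a1 was 0.184 with all libraries. The cause was not tested.

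Leaving out each clone in turn gave 0 to 1 genes for high against low, 0 to 147 genes and 0 to 2 members for intermediate against low, and 0 to 5 genes for high against intermediate. High minus low then ranged from −1.77 to 5.18 for Col10a1, −0.21 to 0.12 for Col16a1, −0.13 to 0.18 for Col1a1, −0.62 to 2.47 for Col26a1, −0.16 to 0.22 for Col27a1, −0.45 to 0.27 for Col28a1, −0.12 to 0.22 for Col3a1, −0.091 to 0.12 for Col4a1, −0.14 to 0.0077 for Col4a2, −0.042 to 0.35 for Col4a5, −0.43 to 3.94 for Col4a6, −0.19 to 0.032 for Col5a1, −0.016 to 0.22 for Col5a2, −0.20 to 0.056 for Col5a3, −0.21 to 0.083 for Col6a2 and −0.30 to 0.57 for Col7a1. Intermediate minus low ranged from −0.088 to 2.13 for Col14a1, −0.011 to 0.32 for Col4a2 and −0.23 to 2.08 for Col8a1. Col25a1 fell below the count filter without bulk_6499c3 or bulk_7160c2 and has no value there. With 2 intermediate clones, and members such as Col4a6 near 0 in most clones, single clones set these values.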

Other observations

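In the unlabelled tumour bulk_6883c1_no1, Col18a1 was at 2293 CPM of the total count, above the range of 280 to 1402 CPM in the 34 labelled tumours. Col6a1 (1404 CPM, labelled range up to 1001 CPM), Col6a3 (746 CPM, up to 734 CPM) and Col4a5 (96.0 CPM, up to 62.7 CPM) were also above it there, and Col5a2 (112 CPM, from 123 CPM) and Col27a1 (12.8 CPM, from 67.0 CPM) below it. Col27a1 was also below its range in bulk_6883c4_no1 (39.4 CPM). In bulk_7062c3_no2 Col27a1 (481 CPM, up to 393 CPM) and Col5a3 (364 CPM, up to 346 CPM) were above it and Col4a5 (4.13 CPM, from 6.09 CPM) below it. In bulk_6883c1_no1 Col3a1 was at 4896 CPM and Col1a2 at 759 CPM, both within the labelled range. All collagen genes together took 1.52% of counts in bulk_6883c1_no1, 1.08% in bulk_6883c4_no1 and 2.46% in bulk_7062c3_no2. Libraries bulk_6883c1_no1 and bulk_6883c4_no1 held liver and heart transcripts and bulk_7062c3_no2 did not, while the labelled ranges pool both kinds.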
